A study of Arabidopsis thaliana with 12 samples.

Results

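TCP15 (AT1G69690), LAS (AT1G55580) and chr31 (AT1G05490) are 3 Arabidopsis thaliana genes with a transcriptional or chromatin role, and each was measured by 1 probe that the array's gene table assigns to it alone. They are 3 of the 691 genes that have a probe of their own, on an array of 3439 probes. The genes were picked because earlier results of the same samples had them higher in stem than in leaf. The values that chose them are the stem and leaf intensities given here, so these stand as a description with no test. The samples were total RNA of wild-type plants of ecotype Columbia 0, 6 of leaf and 6 of stem, hybridised to single-channel arrays. Each tissue has samples numbered 1 to 6 in the labels, which give no plant age, growth condition or stem position. Separate plants are not mentioned either, and the spread between samples may therefore be technical.

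TCP15 belongs to the class I branch of the TCP family, plant-specific transcription factors with a non-canonical basic helix-loop-helix domain. Together with its close relative TCP14 it is known for effects on internode length, leaf shape and the balance between cell division and endoreduplication. LAS (LATERAL SUPPRESSOR) is a GRAS-family regulator, known from mutants that fail to form side shoots in the axils of rosette leaves, and its transcript marks the boundary between a leaf primordium and the shoot meristem. The gene chr31, also known as CLASSY 3, encodes an SNF2-type chromatin remodelling protein of the RNA-directed DNA methylation pathway, in which small RNAs guide methyl marks to DNA. Its known role is in small RNA production, best described in reproductive tissue, and not in branching, so a common name for the 3 genes as branching regulators covers LAS and, for growth, TCP15.

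In the deposited intensities all 3 genes were higher in every stem sample than in every leaf sample. These intensities are linear values on a scale that ends at 100 on each array, and they are not set against one another between genes, because probes differ in brightness. For all 3 genes the fold between mean intensities was above 3, and the ratio of the highest to the lowest value was smaller in stem than in leaf. Of the 3340 probes with any value above 0, 12.7% had all stem values above all leaf values, a share that includes the general lift of stem arrays described below. Since the genes were chosen for being higher in stem, nothing is read from their count against that share. In RNA from whole tissue, fewer cells that express a gene and less of its RNA per cell cannot be told apart.

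For TCP15 the deposited intensity in leaf samples 1 to 6 was 0.254, 0.135, 0.111, 0.242, 0.126 and 0.0382. In stem samples 1 to 6 it was 0.369, 0.321, 0.602, 0.601, 0.526 and 0.592. Leaf 6 was the lowest of the 12 samples and stem 2 the lowest of its tissue, and the tissues did not overlap. Mean intensity (± SD, n = 6 each) was 0.151 ± 0.0827 for leaf and 0.502 ± 0.126 for stem, a ratio of 3.32. The highest leaf value was 6.64 times the lowest, whereas in stem that ratio was 1.88. The order of the samples therefore had stem 3, 4 and 6 at the top, close to one another, and leaf 6 at the bottom.

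For LAS the deposited intensity in leaf samples 1 to 6 was 0.324, 0.186, 0.0681, 0.218, 0.0992 and 0.203. In stem samples 1 to 6 it was 0.519, 0.534, 0.614, 0.603, 0.617 and 0.615. Stem samples 3 to 6 were almost equal, leaf 1 came nearest to stem, and leaf 3 and 5 were low. The leaf samples had a mean of 0.183 ± 0.0912 and the stem samples one of 0.584 ± 0.0450 (SD, n = 6), a ratio of 3.19. The highest stem value of LAS was only 1.19 times the lowest, against 4.75 times in leaf. LAS thus had the narrowest stem range of the 3 genes in deposited values, and its leaf range was wide.

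For chr31 the deposited intensity in leaf samples 1 to 6 was 0.185, 0.220, 0.123, 0.247, 0 and 0.0483. In stem samples 1 to 6 it was 0.462, 0.410, 0.439, 0.483, 0.574 and 0.560. Leaf 5 is listed at 0, leaf 6 was the next lowest, and stem 5 and 6 were the highest. The meaning of an exact 0 is not given in the sources used here, so leaf 5 counts as missing on the log scale. With that 0 included, leaf averaged 0.137 ± 0.0982 and stem 0.488 ± 0.0658 (SD, n = 6), and the ratio of the means was 3.55. The highest stem value of chr31 was 1.40 times the lowest.

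**Figure D1:**
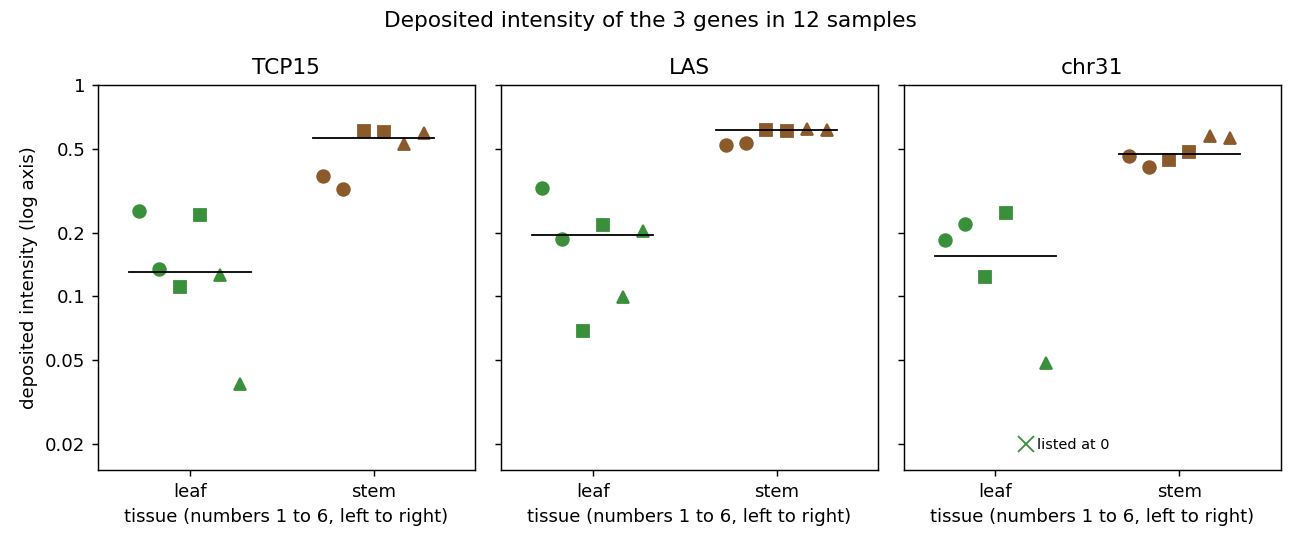
Deposited intensity on a log axis for TCP15, LAS and chr31 in leaf (green) and stem (brown), 6 samples each, numbered 1 to 6 from left to right. Circles mark numbers 1 and 2, squares 3 and 4 and triangles 5 and 6, the black bar is the median of the tissue, and the cross in the chr31 panel stands for leaf 5, which is listed at 0. Each gene has all 6 stem samples above all 6 leaf samples, and on this log axis the leaf samples are the more spread out.

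The arrays themselves differed between the tissues. The median deposited intensity of an array ran from 0.104 to 0.154 in leaf and from 0.154 to 0.324 in stem, and leaf arrays had 658 to 785 probes at 0 against 479 to 536 in stem. Quantile normalization, which gives every array the same distribution of values, was therefore applied to log2 intensities, and the median stem minus leaf difference over the tested probes was 0.13 after it and 0.62 before. No gene on the lists of leaf or stem markers (8 and 10 genes) had a probe of its own, so the tissue labels were not checked against these markers. Some photosynthesis genes, each read on its own probe, were picked after their values were known, and the choice may not be complete. LHB1B2 differed between stem and leaf by -0.21 ± 0.16, PSBY by -0.13 ± 0.13 and PRK by -0.096 ± 0.15 (normalized log2, SE). PSAN differed by 0.14 ± 0.20 and PSBW by 1.62 ± 0.42. For LPA19 the difference was -1.64 ± 0.38, for PSB27 0.96 ± 0.51, for NdhS 0.53 ± 0.29 and for CHLM 0.15 ± 0.23. These genes thus went both ways and do not serve as a check of the tissue labels. Over 935 bright probes, samples of neighbouring numbers (1 and 2, 3 and 4, 5 and 6) had rank correlations of 0.908 to 0.932 in leaf and 0.976 to 0.981 in stem, against 0.736 to 0.853 between other stem samples. They may be repeats of 1 sample, which the labels do not say. Leaf samples 1 and 2 correlated with stem at 0.592 to 0.763, and leaf samples 3 to 6 at 0.423 to 0.562, so leaf 1 and 2 stood closer to stem. With leaf samples 3 to 6, leaf 1 and 2 correlated at 0.657 to 0.699, which lies within their range with stem. By this measure leaf 1 and 2 were thus no more alike to the other leaf samples than to some stem samples.

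After normalization TCP15 had a leaf level of -2.67 ± 0.85 and a stem level of -1.27 ± 0.23 (log2 intensity, SD, n = 6). The normalized values of its leaf samples lay between -4.12 (leaf 6) and -1.69 (leaf 1), and those of its stem samples between -1.48 (stem 2) and -0.90 (stem 6), again with no overlap. Of the 1870 probes above 0 in all 12 samples, 8.24% had every normalized stem value above every leaf value. The difference of TCP15 was 1.40 ± 0.36 (log2, SE of the fit across all probes), or 2.64-fold. The gap between its highest leaf and its lowest stem sample was small beside the spread within leaf.

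On the normalized log2 scale LAS averaged -2.34 ± 0.85 over the leaf samples and -1.01 ± 0.29 over the stem samples (SD, n = 6). Its tissues touched after normalization, since leaf 1 (-1.371) was above stem 4 (-1.407) and almost level with stem 3 (-1.370). The other leaf samples of LAS ran from -3.78 (leaf 3) to -1.75 (leaf 6), below all of stem. The difference of LAS was 1.33 ± 0.35 (log2, SE), or 2.51-fold. Stem 3 and 4 were the low ones of their tissue here. In deposited intensity they were almost level with stem 5 and 6 and above stem 1 and 2. Their arrays had the highest medians.

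chr31 was at -2.58 ± 0.79 in leaf (SD, n = 5, leaf 5 missing) and -1.31 ± 0.45 in stem (n = 6) on the normalized log2 scale. Leaf 2 (-1.87) was above stem 3 (-1.95), so the tissues overlapped by this pair of samples after normalization. The remaining leaf values of chr31 ran from -3.77 (leaf 6) to -2.11 (leaf 4), and its stem values other than stem 3 from -1.82 (stem 4) to -0.94 (stem 5). The difference of chr31 was 1.28 ± 0.37 (log2, SE), or 2.42-fold, on 11 values. With the leaf 0 set to the lowest value above 0 of its array in place of missing, the difference was 2.85, so its size depends on how that 0 is read.

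These differences were moderate for the array. In limma, 24.2% of the 2657 probes with enough values to be tested passed an adjusted p of 0.05, and 14.1% passed as higher in stem. The 3 genes were chosen among the latter, and nothing is read from that. These shares take the 12 samples as independent. With neighbouring numbers averaged, 46 probes passed, 26 of them higher in stem. With each array centred on its median, 272 passed as higher in stem and 324 as lower. Of the tested probes, 9.63% had a higher stem minus leaf difference than TCP15, 10.9% a higher one than LAS and 12.01% a higher one than chr31. Among the 510 genes on a probe of their own that could be tested, TCP15 came at place 51 from the top, LAS at 59 and chr31 at 69. The median difference of the 531 probes of like brightness (the tested probes cut into 5 classes by mean level over both tissues) was 0.20 for TCP15 and chr31 and 0.28 for LAS. Measured from the median of all tested probes, TCP15 differed by 1.27, LAS by 1.20 and chr31 by 1.15 (log2). The 95% intervals of the 3 differences, 0.64 to 2.16, 0.57 to 2.08 and 0.48 to 2.07 in that order, cover nearly the same range. They take the 12 samples as independent and make no allowance for the choice of the genes on this same contrast. They are therefore no test of a difference from 0. With a term for the sample number the SE was 0.36 for TCP15, 0.28 for LAS and 0.37 for chr31. With neighbouring numbers averaged it was larger, at 0.45, 0.45 and 0.54 in that order. Differences between the genes were not tested, so no order of size is read.

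**Figure D2:**
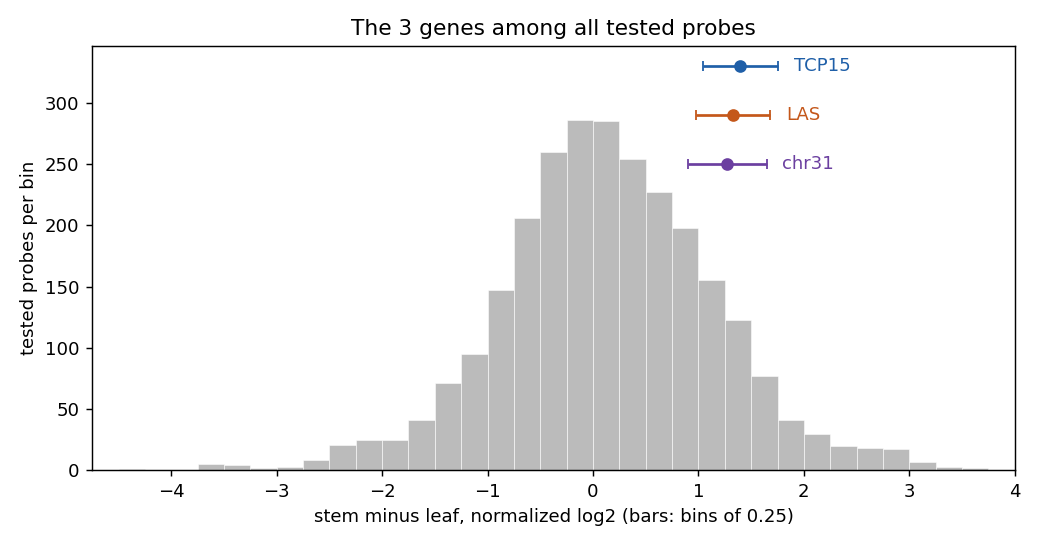
Stem minus leaf difference in normalized log2 intensity for all 2657 tested probes (grey bars, probes per bin of 0.25) with TCP15, LAS and chr31 placed above it as points with their standard errors, at heights that carry no value. The 3 genes, at 1.40, 1.33 and 1.28, lie on the right shoulder of the distribution and their error bars overlap.

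The rank of a probe among all 3439 probes of its array needs no scaling. TCP15 stood at 29.8 to 68.7% of the probes in leaf (median 54.2%) and at 70.0 to 79.7% in stem (median 72.4%), so its tissues did not overlap in rank. LAS stood at 36.1 to 74.3% in leaf (median 59.9%) and 71.5 to 80.8% in stem (median 80.4%), with leaf 1 above stem 3 and 4. For chr31 the rank was 9.74% in leaf 5, where it is listed at 0, up to 65.4% in leaf 2, and 61.3 to 79.1% in stem, with leaf 2 above stem 3 and 4, and leaf 4 above stem 3. Mean ranks were higher in stem by 21.7 percentage points for TCP15, 20.1 for LAS and 26.5 for chr31. In rank, as in deposited intensity, stem was higher than leaf at 6 of 6 numbers for each of the 3 genes. Since the genes were chosen for being higher in stem, nothing is read from this count.

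The size of the difference varied from number to number, and not in the same way for the 3 genes. For TCP15 the normalized log2 difference at numbers 1 to 6 was 0.38, 1.03, 1.72, 0.73, 1.299 and 3.23. The value at number 6 sets the lowest leaf sample of TCP15 against its highest stem sample. Without number 6 the difference of TCP15 was 1.03, and without leaf 6 alone it was 1.11. For LAS the differences at numbers 1 to 6 were 0.56, 1.29, 2.41, 0.91, 1.88 and 0.92, with the high value at number 3, where leaf 3 was low. For chr31 they were 1.17, 0.71, 1.06 and 0.29 at numbers 1 to 4 and 2.77 at number 6, and without number 6 its difference was 0.92. Within the pairs of neighbouring numbers, TCP15 differed by 0.71, 1.23 and 2.26 in turn, LAS by 0.92, 1.66 and 1.40, and chr31 by 0.94, 0.68 and 2.80. The last value of chr31 rests on leaf 6 alone. The median difference of all tested probes within these pairs was 0.12, 0.11 and 0.0033, lowest in the last pair, where TCP15 and chr31 differed by the larger amounts. Without numbers 1 and 2, whose leaf samples stood closer to stem, the differences were 1.74 for TCP15, 1.53 for LAS and 1.54 for chr31.

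**Figure D3:**
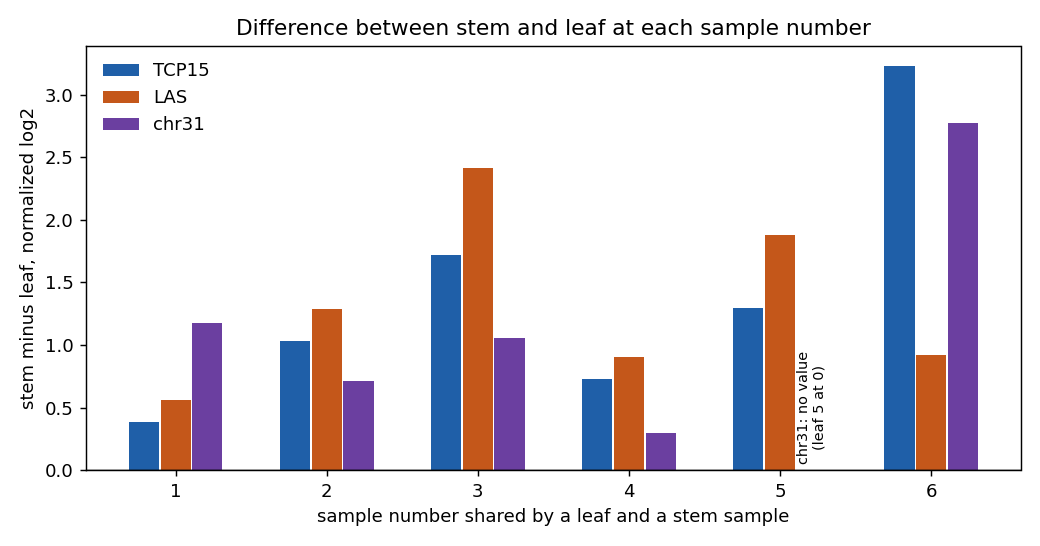
Stem minus leaf difference in normalized log2 intensity at each of the sample numbers 1 to 6, for TCP15, LAS and chr31. All bars are above 0, TCP15 and chr31 are high at number 6 (3.23 and 2.77) and LAS at number 3 (2.41), and chr31 has no bar at number 5 because leaf 5 is listed at 0.

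On the normalized log2 scale most of the spread of the 3 genes lay in leaf. In deposited intensity TCP15 had the larger SD in stem (0.126 against 0.0827), and LAS and chr31 in leaf. The leaf SD on the normalized log2 scale was 3.77 times the stem SD for TCP15, 2.90 times for LAS and 1.75 times for chr31. Over all tested probes the median of this ratio was 1.61, and 73.7% of probes had the larger SD in leaf, so a wider leaf spread is common on these arrays. A higher ratio than that of TCP15 was seen in 13.4% of tested probes, against 21.4% for LAS and 45.8% for chr31. For TCP15 and LAS the spread was also present between leaf samples of neighbouring numbers. TCP15 differed by 0.82, 0.98 and 1.73 (log2) between leaf 1 and 2, 3 and 4, and 5 and 6. The median probe of its brightness class differed by 0.51, 0.48 and 0.45. The classes rest on the mean level over both tissues, and the 3 genes were lower in leaf than in stem. Their leaf gaps were thus not compared with those of probes of equal leaf level. LAS differed by 0.71, 1.47 and 0.98 within the same leaf pairs, where probes of its brightness differed by 0.28, 0.33 and 0.29. For chr31 the gap was 0.29 between leaf 1 and 2, below the 0.51 of probes of its brightness, and 0.90 between leaf 3 and 4, above their 0.48. In stem the gaps of the 3 genes between neighbours were 0.016 to 0.20, where the median probe of their brightness differed by 0.13 to 0.25. The low leaf values of TCP15 and LAS were thus not shared by the neighbouring sample of the same tissue.

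In stem the differences lay between the pairs of numbers. Stem 3 and 4 had the lower pair mean for LAS, at -1.39 against -0.80 and -0.85 in the other pairs, and for chr31, at -1.88 against -1.07 and -0.97. For TCP15 the pair means in stem were -1.40, -1.41 and -0.995, so only stem 5 and 6 stood higher. Stem 3 and 4 were also the arrays with the highest median deposited intensity.

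Which of the 3 genes resembled each other most depended on the samples taken and, within stem, on the normalization. Over both tissues TCP15 and chr31 were the closest pair. Over the 11 samples with both values, the normalized levels of TCP15 and chr31 had a Pearson correlation of 0.92, which includes the difference between tissues. After each tissue mean was subtracted it was 0.81. For TCP15 and LAS the corresponding values were 0.67 and 0.21 (12 samples), and for LAS and chr31 they were 0.69 and 0.32 (11 samples). Within stem alone (n = 6) LAS and chr31 were the closest pair in normalized values, at 0.97. TCP15 and chr31 had 0.58 there, and TCP15 and LAS 0.44. In deposited intensity the lowest stem samples were stem 1 and 2 for both TCP15 and LAS, but stem 2 and 3 for chr31. The order of the pairs within stem thus holds for the normalized values only. Leaf 6 was low for TCP15 and chr31 and among the higher leaf samples for LAS. Without number 6, a choice made after seeing the values, the correlations with tissue means subtracted were 0.63 for TCP15 and chr31, 0.73 for TCP15 and LAS and 0.71 for LAS and chr31. These correlations share the same arrays and their scaling, and neighbouring numbers may not be independent, so they are given as a description.

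**Figure D4:**
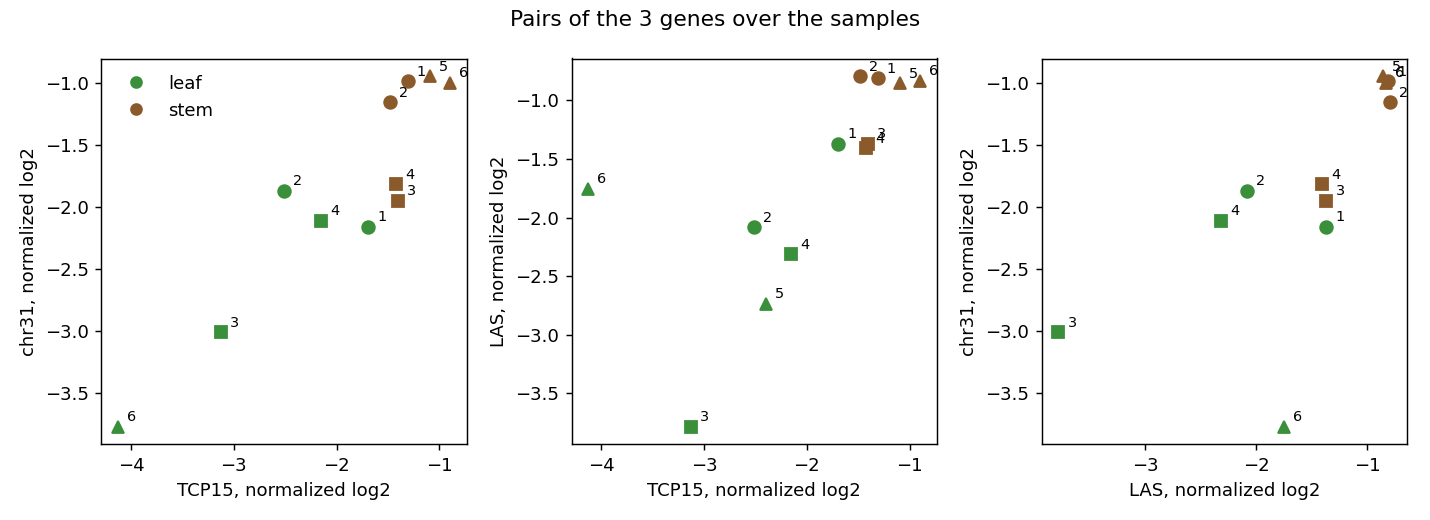
Normalized log2 intensity of TCP15 against chr31, TCP15 against LAS and LAS against chr31 in leaf (green) and stem (brown), with each point labelled by its sample number and circles, squares and triangles for numbers 1 and 2, 3 and 4, and 5 and 6. Stem samples gather at the upper right, and leaf 6 is low for TCP15 (-4.12) and chr31 (-3.77) but not for LAS (-1.75).

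The genes whose pattern was most like each of the 3 were sought among the other genes with a probe of their own and a value above 0 in all 12 samples. For TCP15, the highest correlation among 354 such genes was that of AT4G21820, with 0.93 over 12 samples, 0.83 within leaf and 0.75 within stem (n = 6 each). AT5G62840 (0.91), AT5G35100 (0.88), AT1G10310 (0.88) and AT3G50350 (0.88) followed. Within stem alone AT5G35100 ran against TCP15 (-0.83) and AT3G50350 was unrelated to it (0.032), so their likeness lay in leaf and between tissues. The pattern most opposed to TCP15 was that of AT5G65220 (-0.86), which turned to -0.40 in the deposited values. LAS, by the same measure, came at place 51 for TCP15.

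For LAS the closest pattern among 354 genes was that of AT2G41950, with 0.92 over 12 samples, 0.86 within leaf and 0.85 within stem. AT2G27290 (0.89), AT5G49840 (0.89), AT4G16410 (0.89) and AT1G76450 (0.88) came next. Of these, AT2G27290 followed LAS within stem at 0.96 and AT5G49840 at 0.19. AT1G01250 was the most opposed (-0.88, and -0.27 in the deposited values). None of the 5 genes closest to LAS was among the 5 closest to TCP15 or chr31.

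For chr31, on 11 samples and 355 genes, the closest pattern was that of APS4 (AT5G43780), an ATP sulfurylase of sulfate assimilation, with 0.94 over the samples, 0.91 within leaf (n = 5) and 0.89 within stem. AT5G62840 (0.94) and AT4G21820 (0.93), which were also the leading genes for TCP15, came next, followed by TCP15 itself (0.92) and AT2G35450 (0.92). PPDK, pyruvate orthophosphate dikinase, was the most opposed (-0.91, and -0.59 in the deposited values). The lists overlapped in part: AT4G21820 and AT5G62840 were among the 5 closest to both TCP15 and chr31, 2 of 5 on each list. Correlations over both tissues include the difference between the tissues.

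The array says little about the pathways of the 3 genes. Lists were drawn up for the TCP family, the GRAS family, axillary meristem, boundary and branching genes, SNF2 remodellers, RNA-directed DNA methylation, the cell cycle and gibberellin. With the leaf and stem markers they hold 174 different genes besides the 3 described, and 1 of these had a probe of its own. No other GRAS gene (of 28), axillary meristem or branching gene (of 37), SNF2 remodeller (of 30) or RNA-directed DNA methylation gene (of 23) could be read, and the same held for the 12 cell cycle and 10 gibberellin genes. The exception was AT2G37000, 1 of the other 23 loci on the TCP list. Its deposited intensity was 0 in leaf 1 to 4, 0.0507 in leaf 5 and 0.0242 in leaf 6. In stem samples 1 to 6 it was 0.0954, 0.0598, 0.580, 0.548, 0.184 and 0.211, above every leaf value. AT2G37000 had too few leaf values above 0 to enter the fit, and 65 of 3439 probes (1.89%) shared the pattern of at least 4 leaf zeros and no stem zero, against 2 with the reverse. Its high values were in stem 3 and 4, the arrays with the highest medians.

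Other regulators with a probe of their own were picked by name for comparison, after the names on the array had been read. Of 10 such genes 6 could be tested, and in limma 0 passed an adjusted p of 0.05 in either direction, also 0 at an unadjusted p under 0.05, where 24.5% of the 510 tested genes passed after adjustment. IYO, which in Arabidopsis promotes the onset of cell differentiation, differed by 0.077 ± 0.25 (log2, SE, adjusted p = 0.84). SPL (SPOROCYTELESS), a regulator of sporogenesis, differed by -0.21 ± 0.27 (adjusted p = 0.60). IAA31, of the auxin-responsive Aux/IAA family, differed by -0.11 ± 0.23 (adjusted p = 0.75). AGL26 and AGL103 differed by -0.27 ± 0.23 (adjusted p = 0.43) and -0.032 ± 0.49 (adjusted p = 0.96). RAP74, a subunit of the general transcription factor TFIIF, differed by -0.38 ± 0.27 (adjusted p = 0.32), and passed as lower in stem with each array centred on its median (-1.10, adjusted p = 0.017). The median difference of the 6 genes was -0.16, against 0.13 over all tested probes. The 10 genes were not a sample of any pathway, so their count says nothing of TCP15, LAS or chr31.

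The remaining 4 of these regulators had zeros in at least 3 leaf samples. FBL17, an F-box protein that promotes cell cycle progression by removing cyclin-dependent kinase inhibitors, was listed at 0 in leaf 2, 3, 4 and 6, with 0.0586 in leaf 1 and 0.0715 in leaf 5. Its deposited intensity in stem samples 1 to 6 was 0.147, 0.161, 0.0950, 0.0835, 0.129 and 0.115, above every leaf value. Of probes with any value above 0, 12.7% had all stem values above all leaf values. The pattern of at least 4 leaf zeros and no stem zero was seen in 1.89% of all probes. Nothing is read from FBL17 beside these shares. AGL54, a MADS-box gene, was at 0 in leaf 3, 4 and 5 but higher in leaf 1 and 2 (0.257 and 0.275) than in any stem sample (0.112 to 0.178). DME, a DNA glycosylase that removes methylated cytosine, and SAP, a floral regulator, were at 0 in 4 leaf samples and in 5 and 6 stem samples.

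On chromosome 1, where the 3 genes lie, the tested gene nearest to chr31 was LPA19, 9 genes away in the reference order, and it was lower in stem, with a difference of -1.64 ± 0.38 (log2, SE, adjusted p = 0.0071 in limma). AT1G55440, 16 genes from LAS, differed by 0.24 ± 0.68 (adjusted p = 0.83). AT1G69910, 25 genes from TCP15, was lower in stem, with a difference of -0.80 ± 0.22 (adjusted p = 0.016).

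Under the other settings tried, the 3 genes were again higher in stem. The differences with each array centred on its median were 1.36 for TCP15, 1.29 for LAS and 1.24 for chr31, and in the deposited values 1.93, 1.85 and 1.76. With neighbouring numbers averaged to 1 value, which leaves 3 samples a tissue, they were 1.40, 1.33 and 1.47. The choice of the genes fixed the direction in these samples, so its persistence is no independent support.

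**Figure D5:**
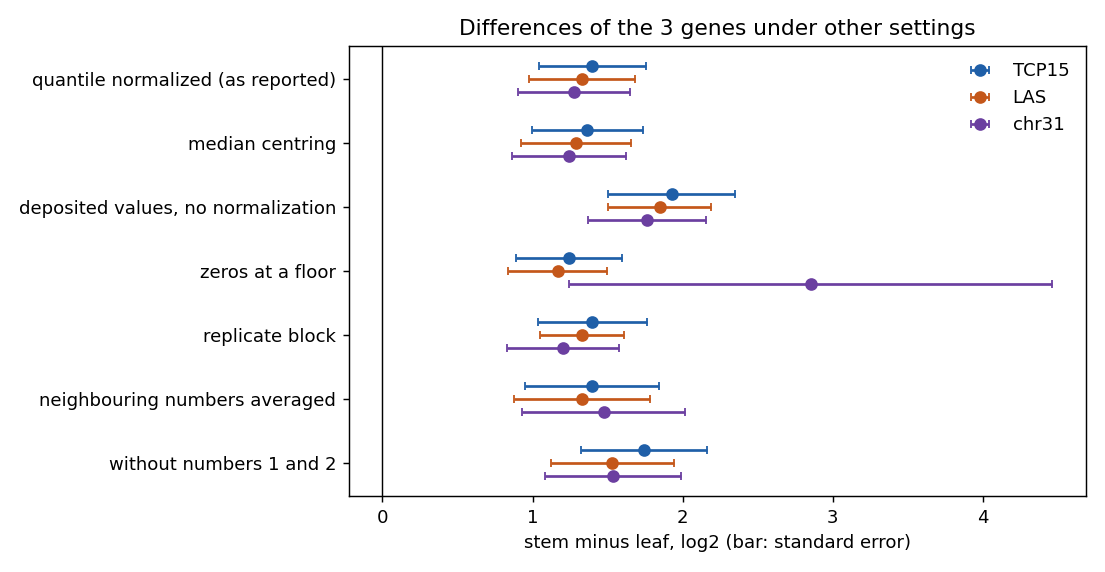
Stem minus leaf difference (log2) of TCP15, LAS and chr31 with its standard error under 7 settings. All points lie above 0, the deposited values give the larger differences for TCP15 (1.93) and LAS (1.85), and chr31 moves to 2.85 with a wide error when its leaf 0 is set to a floor.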

How the data were processed

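Array intensity was deposited by the authors as 1 table (3439 probes, 12 samples). From the values, it is linear and ends at 100 on each array. For background correction, scaling and the meaning of 0, the method is not given in the sources used here. Intensities were turned to log2 with zeros missing and, as array medians spanned 1.42, quantile normalized. Probes with at least 4 values above 0 in each tissue (2657) were fitted in limma 3.58.1 (R 4.3.3, statmod 1.5.0; lmFit, eBayes with trend and robust variance, two-sided) with Benjamini-Hochberg adjustment over all of them, and an adjusted p under 0.05 counted as called. The fit was tested on simulated data. Figures used matplotlib 3.10.9.

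Gene names are those of the array's annotation, updated through RefSeq (TAIR10.1, names and gene order only): 692 probes had 1 gene, 870 several and 1877 were unnamed here. The brightest probe stood for a gene.

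The members and lists were chosen with earlier results of these data known. Named genes were the 3 members, the 5 most and 1 least alike to each, and testable list genes; regulators picked by name and genes near the members on the chromosome were added later. Same-numbered leaf and stem samples shared deviations (correlation 0.17 to 0.26 over probes, against -0.17 to 0.15 for different numbers), so by the rule used, and from the data rather than the labels, the numbers pair the samples. The fit had no term for the number. The number of arrays limits the precision.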

Additional observations from a re-analysis of the deposited data

Results flagged for a closer look

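Of 51 sets of samples checked, 1 held a sample far from the rest by the gap to its nearest neighbour. AT5G35100, the third gene on the list of patterns like TCP15, was at -5.14 in leaf 6 (normalized log2), and its remaining leaf values ran from -2.06 to -1.13. Its correlation with TCP15 was 0.88 over 12 samples and -0.83 within stem. Leaf 6 was also the lowest leaf sample of TCP15 (-4.12), which did not stand apart by the same measure. The sets were the leaf or stem samples of the 3 genes, of the genes alike to them and of the listed or named regulators, where at least 4 values were above 0. Chance sets about 1 in 20 such sets apart.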

How the results depend on the processing

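The stem minus leaf difference was above 0 in 26 of 26 alternatives for TCP15 and for LAS and in 25 of 25 for chr31, which has no value when only probes above 0 in all samples are kept. All alternatives use the samples in which the genes were chosen as higher in stem, so these counts are no independent support. Only the difference of chr31 moved by more than its spread within tissues, to 2.85 with zeros at a floor. At that setting the differences of TCP15 and LAS were lower than reported, at 1.24 and 1.17. Leaving out 1 number, or 1 single sample (added after seeing the data), gave 1.03 to 1.60 for TCP15, 1.04 to 1.52 for LAS and 0.92 to 1.496 for chr31. With the number as a replicate block the differences were 1.40, 1.33 and 1.20, and 708 probes were called in place of 643. The count of called probes was 46 with neighbouring numbers averaged, which leaves 6 values, and lay between 375 and 716 with a number or sample left out; without number 3, 4, 5 or 6 it was 422, 405, 375 and 392. The split of the calls changed with scaling (374 higher and 269 lower as reported, 675 and 160 in the deposited values, 272 and 324 with median centring). It also changed with the handling of zeros, to 227 higher and 262 lower with zeros at a floor. No gene had another probe of its own to compare. The leading genes by likeness, AT4G21820, AT2G41950 and APS4, had correlations of 0.90 to 0.98 in the deposited values, the 6 averages and by rank.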
